A study of Mus musculus with 6 samples.

Results

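Lgr5 and 9 other genes that mark stem cells at the base of the intestinal crypt (Lgr4, Smoc2, Ascl2, Olfm4, Prom1, Cd44, Lrig1, Rgmb and Cdca7) were followed by RNA sequencing in 6 libraries of mouse tumour-derived organoids. The genes were taken by symbol, and all 10 were found among the 23224 genes of the deposited table. The organoids are labelled AKP, which the labels do not spell out, and were grown from tumours that had formed in an animal; both groups share this background. The Control group has 3 libraries, and the other 3 are labelled SOX17KO, made with CRISPR-Cas9 against SOX17, an endoderm transcription factor, to ask about its role in colon cancer. The guide, the number of clones and whether libraries came from separate cultures are not stated by the labels, so p-values here reflect only how far these libraries spread, which may be technical.

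At the crypt base, Wnt signals keep stem cells dividing. R-spondins bind the receptors LGR4, LGR5 and LGR6 and hold back RNF43 and ZNRF3, membrane ligases that remove Wnt receptors from the cell surface. Lgr5 and Ascl2 are themselves switched on by Wnt signalling.

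The libraries held 18290912 to 27503254 expected counts. Sox17 was at 34.4, 34.5 and 34.2 CPM in Control (counts scaled to a common library size after edgeR's TMM adjustment) and 33.8, 41.9 and 45.1 CPM where the label reads SOX17KO. Its RNA was therefore not lower there and does not check the labels. The log2 fold change of Sox17 was 0.23 with all libraries (edgeR adjusted p = 0.345) and 0.34 without SOX17KO replicate 1 (edgeR adjusted p = 0.0113). SOX17KO replicate 1 stood apart, with log2 CPM correlated across genes at 0.960 and 0.963 with replicates 2 and 3, which were correlated at 0.986 with each other. The epithelial genes Epcam and Cdx2 were detected in every library, at no less than 523.5 and 123.2 CPM. Fibroblast, endothelial and enteroendocrine markers had no gene abundant enough to test.

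Lgr5 and Smoc2 rose, and no member was called lower. Of the 10 members 9 passed the filter on low counts, and 2 of these 9 were called higher at a Benjamini-Hochberg adjusted p below 0.05 in edgeR's quasi-likelihood test. Among all 12137 genes tested, 3.67% were called higher, 3.20% lower and 6.87% in either direction. The SOX17KO libraries lay above every Control library for 5 of the 9 members (Lgr5, Smoc2, Prom1, Lrig1 and Rgmb) and below for 0, against 14.0% and 14.2% of all tested genes (28.2% in either direction). The median log2 fold change of the 9 members was 0.20, beside 0.014 over all tested genes. DESeq2 called 4 members higher (Lgr5, Smoc2, Prom1 and Lrig1) and 0 lower against 5.75% of all its genes higher and 4.99% lower, and limma-voom called 1 (Lgr5) where it called 2.99% higher. Without SOX17KO replicate 1, edgeR called those 4 members higher and 1, Cdca7, lower, with 11.9% of all genes called higher and 10.3% lower. When Control replicate 1, 2 or 3 was dropped it called 1 member, Lgr5, against 0.806%, 0.796% or 0.789% of all genes called higher. In bulk RNA, more cells of a type and more RNA per cell cannot be told apart.

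**Figure D1:**
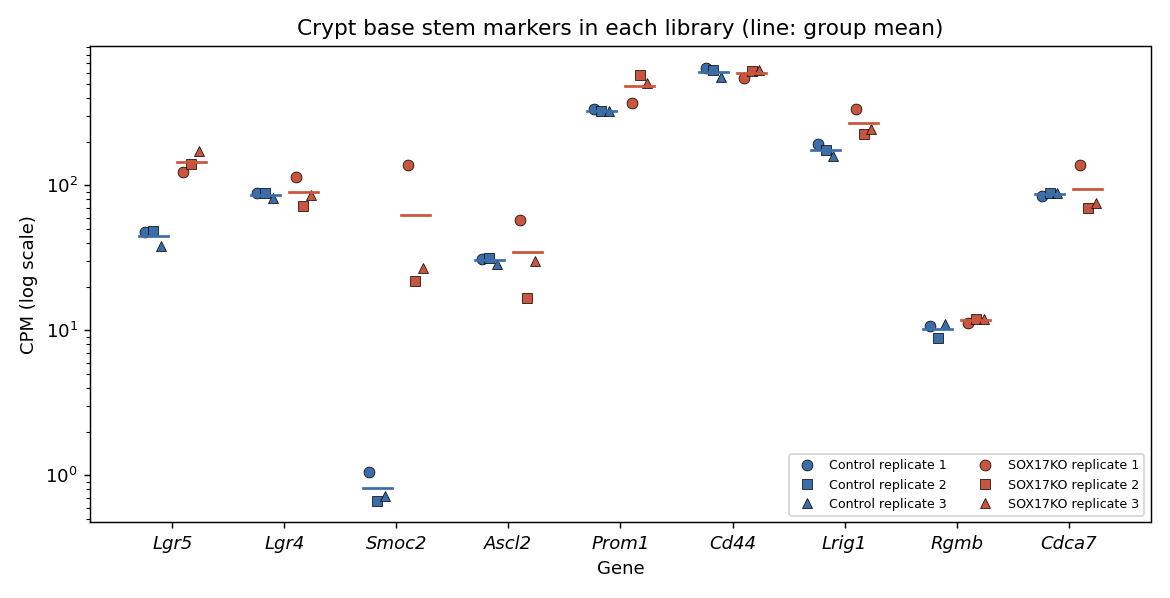
CPM on a log axis of the 9 tested members in each of the 6 libraries, with Control in blue, SOX17KO in red, a marker shape for each replicate and a line at each group mean. The Lgr5 points of the groups lie apart (at most 48.4 CPM in Control, at least 123.2 CPM in SOX17KO), and the 3 Smoc2 points of SOX17KO are spread from 21.9 to 139.4 CPM.

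Lgr5, on chromosome 10, encodes the R-spondin receptor by which crypt base stem cells are most often recognised. It was at 47.8, 48.4 and 38.3 CPM in Control replicates 1, 2 and 3 and rose to 123.2, 139.5 and 172.9 CPM with SOX17KO, in the same order. The lowest SOX17KO library was well above the highest Control library. The rise was 3.24-fold, a log2 fold change of 1.70 ± 0.15 (SE, n = 3 per group) with a 95% interval of 1.33 to 2.06 (edgeR adjusted p = 0.00171). It was called without each library in turn, with log2 fold changes of 1.55 to 1.80 and a highest edgeR adjusted p of 0.0216. The 20 tested genes nearest to Lgr5 along its chromosome, from Bbs10 to Cpsf6, had a median log2 fold change of -0.0084 and a range of -0.30 to 0.43, and none of them was called in either direction.

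Lgr4, on chromosome 2, encodes the receptor of the same family that crypt cells express more widely. It was at 88.3, 88.1 and 82.1 CPM in Control, against 114.0, 72.2 and 85.6 CPM in SOX17KO. The groups overlapped, with SOX17KO replicate 1 above and replicate 2 below all Control libraries. Its log2 fold change was 0.07 (95% interval -0.31 to 0.45, edgeR adjusted p = 0.873), so the interval includes no rise of the size seen for Lgr5. The ratio of Lgr5 to Lgr4 CPM, in which library size cancels, was 0.542, 0.549 and 0.466 in Control and 1.08, 1.93 and 2.02 in SOX17KO. Lgr6, the third receptor of the family, was at 7.67, 6.65 and 7.46 CPM in Control, against 24.8, 8.08 and 17.6 CPM in SOX17KO, with a log2 fold change of 1.21 ± 0.37 (SE) that was not called (edgeR adjusted p = 0.110). DESeq2 called Lgr6 higher (adjusted p = 0.0118), as did edgeR without SOX17KO replicate 2 (adjusted p = 0.00951).

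Smoc2, on chromosome 17, encodes a secreted matricellular protein that is enriched in Lgr5-positive cells. It had 29, 14 and 19 counts in the Control libraries (1.05, 0.670 and 0.723 CPM) and 3652, 500 and 485 counts with SOX17KO (139.4, 21.9 and 26.9 CPM). All SOX17KO libraries were far above Control, and replicate 1 stood 6.35-fold above the lowest of them. The log2 fold change was 6.25 ± 0.92 (SE) with a 95% interval of 4.07 to 8.43 (edgeR adjusted p = 0.0104). Without SOX17KO replicate 1 it was 4.87 (edgeR adjusted p = 2.5e-07). Dropping Control replicate 1, 2 or 3 left Smoc2 uncalled (edgeR adjusted p = 0.0802, 0.0687 and 0.0779), as did limma-voom (adjusted p = 0.0924).

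The gene next to Smoc2 in RefSeq order among tested genes, Dact2, which encodes a binding partner of Dishevelled in Wnt signalling, was also higher. Its level went from 0.144 ± 0.073 CPM in Control to 4.65 ± 1.83 CPM in SOX17KO (SD, n = 3), with a log2 fold change of 4.94 ± 0.46 (SE, edgeR adjusted p = 0.00186); it was chosen after its values were seen. Among the 20 tested neighbours of Smoc2, Dact2 was the 1 called higher and the Notch ligand gene Dll1 the 1 called lower, and their median log2 fold change was 0.064.

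Prom1 and Lrig1 lay above Control in every SOX17KO library without passing the test. Prom1, on chromosome 5, encodes CD133, a membrane glycoprotein of crypt base and other progenitor cells. It was at 334.8, 324.4 and 326.0 CPM in Control, against 371.8, 581.6 and 509.9 CPM in SOX17KO, where replicate 1 was closest to Control. The log2 fold change of Prom1 was 0.57 with a 95% interval of 0.20 to 0.94 (edgeR adjusted p = 0.0874). Prom1 was called without SOX17KO replicate 1 (log2 fold change 0.73, edgeR adjusted p = 0.000103) and by DESeq2 (adjusted p = 0.0108).

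Lrig1, on chromosome 6, encodes a transmembrane protein that restrains ERBB receptors and marks stem cells over a broader stretch of the crypt base. It was at 193.1, 176.1 and 160.8 CPM in Control, against 336.9, 226.5 and 247.0 CPM in SOX17KO, where replicate 1 was the highest. The log2 fold change of Lrig1 was 0.61 with a 95% interval of 0.24 to 0.99 (edgeR adjusted p = 0.0718). It too was called without SOX17KO replicate 1 (log2 fold change 0.42, edgeR adjusted p = 0.00666) and by DESeq2 (adjusted p = 0.00699). Its 20 tested neighbours, from Lsm3 to Rybp, had a median log2 fold change of -0.36, with 1 called higher and 3 lower, and the tested genes of chromosome 6 as a whole had a median of -0.24.

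**Figure D2:**
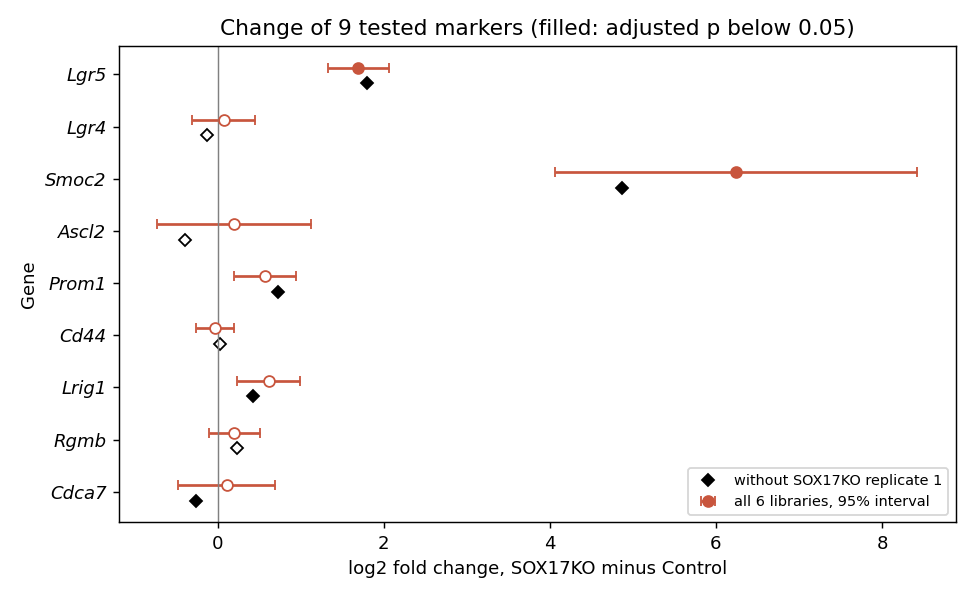
Log2 fold change of SOX17KO minus Control for the 9 tested members, from all 6 libraries (circles with 95% intervals) and without SOX17KO replicate 1 (diamonds); filled symbols have an adjusted p below 0.05. Lgr5 stays between 1.70 and 1.80, Smoc2 moves from 6.25 to 4.87, and Ascl2, Lgr4 and Cdca7 change sign from above to below 0.

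Ascl2, the helix-loop-helix transcription factor that maintains Lgr5-positive cells, did not move with Lgr5. Located on chromosome 7, it was at 31.0, 31.8 and 28.6 CPM in Control, against 57.4, 16.6 and 30.3 CPM in SOX17KO. The 3 Control libraries were close together, while SOX17KO replicate 1 was above all of them, replicate 2 below all of them and replicate 3 between them. The log2 fold change was 0.20 with a wide 95% interval of -0.73 to 1.12 (edgeR adjusted p = 0.858), and it was -0.39 without SOX17KO replicate 1 (edgeR adjusted p = 0.190).

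Cdca7, on chromosome 2, encodes a cell-cycle-regulated partner of the chromatin remodeller HELLS. It was at 85.0, 88.3 and 88.8 CPM in Control, against 137.3, 69.4 and 76.1 CPM in SOX17KO. Replicate 1 was above every Control library and the other two SOX17KO libraries were below every one. The log2 fold change over all libraries was 0.11 (95% interval -0.47 to 0.69, edgeR adjusted p = 0.873), and without SOX17KO replicate 1 Cdca7 was called lower, at -0.27 (edgeR adjusted p = 0.0278). Hells showed the same order, at 77.1, 93.6 and 98.2 CPM in Control, against 112.4, 52.5 and 60.8 CPM in SOX17KO. All 10 proliferation genes examined had their highest SOX17KO value in replicate 1, as did 40.1% of all tested genes; whether this bears on Cdca7 was not tested. Their summed level was 3035 to 3490 CPM in Control and 3710, 2703 and 2747 CPM in SOX17KO replicates 1, 2 and 3.

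Of the members, Lgr4, Smoc2, Ascl2, Lrig1 and Cdca7 (5 of 9, 55.6%) had their highest SOX17KO value in replicate 1. Lgr5, Prom1, Cd44 and Rgmb (4 of 9, 44.4%) had their lowest there. Over all 12137 tested genes, replicate 1 was the highest SOX17KO library for 40.1% and the lowest for 42.3%, so such extremes were common. On a log2 scale against the Control mean, SOX17KO replicates 1, 2 and 3 were at 0.92, -0.87 and -0.01 for Ascl2. They were at 0.65, -0.33 and -0.20 for Cdca7 and at 0.40, -0.26 and -0.01 for Lgr4. For Lgr5 they were at 1.46, 1.64 and 1.95, so no library went the other way.

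**Figure D3:**
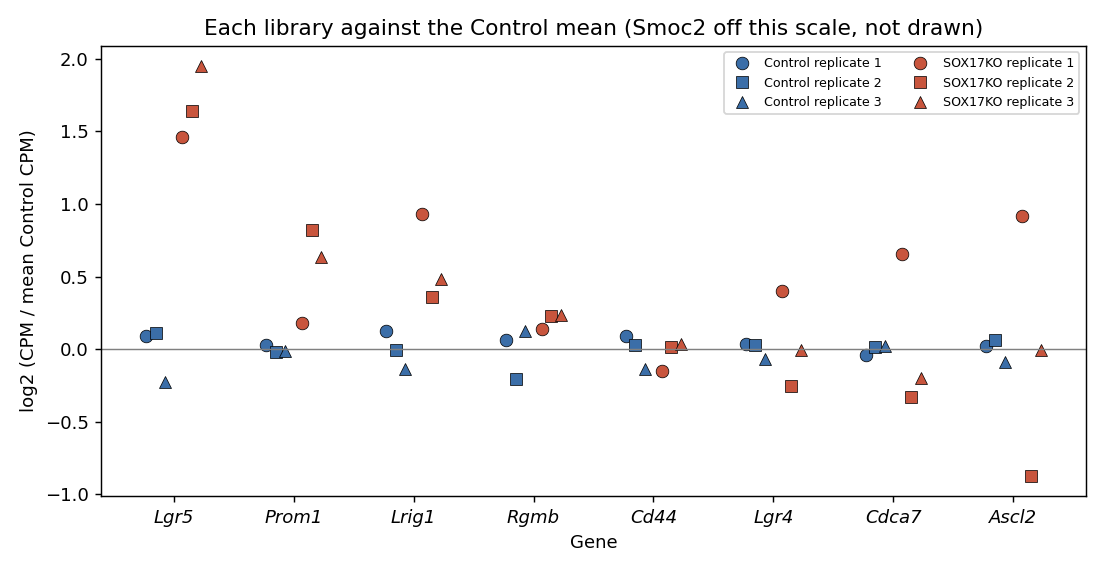
Log2 ratio of each library's CPM to the Control mean for 8 members, with Control in blue, SOX17KO in red and a marker shape for each replicate (Smoc2, at 4.75 to 7.42 in SOX17KO, is not drawn). For Lgr4, Cdca7 and Ascl2 SOX17KO replicate 1 is above 0 and the other two SOX17KO libraries are below 0, while for Lgr5 all 3 are at 1.46 or higher.

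Cd44 and Rgmb showed little change. Cd44, on chromosome 2, encodes a hyaluronan receptor and is a Wnt target of the crypt. It was at 650.1, 623.7 and 556.3 CPM in Control, against 549.9, 617.3 and 624.8 CPM in SOX17KO, with overlapping groups. Its log2 fold change was -0.03 with a 95% interval of -0.26 to 0.20 (edgeR adjusted p = 0.919). Rgmb, on chromosome 17, encodes a BMP co-receptor. It was at 10.6, 8.80 and 11.07 CPM in Control, against 11.2, 11.9 and 12.0 CPM in SOX17KO, a narrow range just above Control. Its log2 fold change was 0.20 (95% interval -0.10 to 0.51, edgeR adjusted p = 0.468).

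Olfm4, on chromosome 14, encodes a secreted glycoprotein that marks stem cells of the mouse small intestine but is scarce in mouse colon. It had 3, 0 and 1 counts in the Control libraries and 3, 3 and 1 in SOX17KO. No library exceeded 3 counts, the upper limit that a count of 0 allows (0.109 to 0.166 CPM in single libraries), so no fold is given and a difference was not detectable at this depth. Such limits cover counting error only.

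Levels of different members were compared per kilobase of the longest protein-coding transcript in GENCODE M21, an annotation other than the authors', so the order is approximate. Transcripts ran from 2508 to 4714 bases for Lgr5, 814 to 1605 for Ascl2, 588 to 2832 for Smoc2 and 1305 to 5614 for Cd44. For Lgr4 they ran from 4988 to 5060 bases. The SDs do not include this choice of transcript, on which the order can depend. In Control, Cd44 (108.7 ± 8.62 CPM per kilobase; SD, n = 3) and Prom1 (80.3 ± 1.37) were the highest. Cdca7 (36.0 ± 0.847) and Lrig1 (35.7 ± 3.26) did not differ beyond their spread. Ascl2 (18.97 ± 1.04) and Lgr4 (17.03 ± 0.695) followed close to each other, then Lgr5 (9.51 ± 1.21), Rgmb (1.79 ± 0.211), Smoc2 (0.287 ± 0.0725) and Olfm4 (0.0174 ± 0.0197). In SOX17KO, Lgr5 stood at 30.8 ± 5.38 CPM per kilobase and Lgr4 at 17.9 ± 4.22, with no overlap between their libraries. Smoc2 reached 22.2 ± 23.5, a spread that covers the levels of Ascl2 (21.7 ± 12.9) and Lgr4. Prom1 (119.3 ± 26.1) and Cd44 (106.4 ± 7.35) did not differ beyond their spread there.

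The tested genes whose profile over the 6 libraries was most like that of Lgr5, by root mean square difference in log2 CPM centred on each gene's mean, were Ampd3 (0.0893), 8430427H17Rik (0.132) and Heph (0.132). Ampd3, an AMP deaminase gene, was at 6.84, 7.03 and 4.72 CPM in Control, against 16.8, 20.6 and 22.7 CPM in SOX17KO. Heph, which encodes the iron oxidase hephaestin, was at 13.5, 12.1 and 11.9 CPM and at 37.2, 33.9 and 49.3 CPM. For Smoc2 no gene came as close. Among the nearest were Pla2g2a (0.694) and Ptprd (0.747). Pla2g2a, which encodes a secreted phospholipase, was at 0.0362, 0.144 and 0.0380 CPM in Control, against 23.1, 4.39 and 12.5 CPM in SOX17KO. Ptprd, a receptor phosphatase gene, had 0.253, 0.383 and 0.571 CPM in Control, against 24.4, 13.6 and 12.6 CPM. All 5 of these genes were called higher by edgeR with all libraries. They were chosen for their likeness to genes called higher, so these calls add no information.

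The stretch before the transcription start is shown for Lrig1 and Prom1, which lay above Control in every SOX17KO library, and for Ascl2, which did so in replicate 1 alone. RefSeq entries on GRCm38.p6 were matched for 8 of the 10 members, with 11 start sites; Lgr5 and Smoc2 are the members without one. Each sequence is the 250 bases before the start, read 5′ to 3′ on the gene's strand, and capitals mark a SOX core motif. Lrig1 lies at chr6:94700146-94700395, Prom1 (the first of 2 start sites) at chr5:44101737-44101986 and Ascl2 at chr7:142969265-142969514, all on the minus strand.
Lrig1: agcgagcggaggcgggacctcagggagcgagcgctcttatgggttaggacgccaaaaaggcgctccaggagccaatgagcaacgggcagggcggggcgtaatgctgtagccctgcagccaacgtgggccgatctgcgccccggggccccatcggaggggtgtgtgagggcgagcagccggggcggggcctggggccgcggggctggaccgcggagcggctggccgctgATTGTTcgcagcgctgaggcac
Prom1: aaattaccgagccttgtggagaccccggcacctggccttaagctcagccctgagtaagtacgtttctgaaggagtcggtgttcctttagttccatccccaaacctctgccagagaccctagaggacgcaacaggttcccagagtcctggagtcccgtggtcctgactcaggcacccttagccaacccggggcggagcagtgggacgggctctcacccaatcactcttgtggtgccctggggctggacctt
Ascl2: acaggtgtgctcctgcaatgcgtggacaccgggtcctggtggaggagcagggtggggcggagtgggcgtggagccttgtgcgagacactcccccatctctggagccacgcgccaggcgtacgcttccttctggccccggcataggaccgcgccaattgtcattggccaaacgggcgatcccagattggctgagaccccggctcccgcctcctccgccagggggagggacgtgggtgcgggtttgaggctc

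The SOX core AACAAT, searched on both strands, was found in 1 of the 11 windows, as its reverse complement ATTGTT beginning 22 bases before the start of Lrig1. It occurs in 9.42% of all 32851 windows of this length. The TCF core CTTTGA, also searched on both strands, was found in 0 of the 11 windows and in 13.8% of all windows. The 1 match overlapped no other. A match is a description of the letters only. The Lrig1 and Ascl2 windows were rich in G and C (71.6% and 67.6%, against a median of 52.4% over all windows).

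The R-spondin and Wnt receptor genes around Lgr5 gave no call. Of 11 listed genes 7 were tested, 6 had a positive log2 fold change, and 0 were called by edgeR or limma-voom, with 1 at an unadjusted p below 0.05. DESeq2 called 1 higher, and edgeR called 3 higher without SOX17KO replicate 1 and 1 without SOX17KO replicate 2. Over all genes, these settings called 5.75%, 11.9% and 444 of 12315 higher. The ligand genes Rspo1, Rspo2 and Rspo3 had 0 counts in every library and Rspo4 had 2 over Control and 0 over SOX17KO. Rnf43, which encodes a ligase held back by R-spondins bound to LGR receptors, was at 205.4 ± 20.04 CPM in Control, against 207.7 ± 11.2 CPM in SOX17KO (log2 fold change 0.016, 95% interval -0.21 to 0.24, edgeR adjusted p = 0.955). Znrf3, its relative, was at 29.5 ± 1.82 and 36.7 ± 7.30 CPM (log2 fold change 0.31, edgeR adjusted p = 0.298). The most abundant gene by CPM was the co-receptor gene Lrp5, at 271.4 ± 23.7 and 299.9 ± 80.2 CPM (edgeR adjusted p = 0.778), which was called higher without SOX17KO replicate 1 (adjusted p = 0.0181).

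Of 16 other Wnt target genes 14 were tested, 4 rose, 0 fell and 10 were not called, with a median log2 fold change of 0.30. Over all tested genes, 3.67% were called higher and 3.20% lower, and the median was 0.014. The 4 targets called were low in Control. Dkk2, which encodes a secreted Wnt modulator, was at 0.362, 0.478 and 0.609 CPM in Control, against 12.4, 9.74 and 7.37 CPM in SOX17KO. Its log2 fold change of 4.34 ± 0.30 (SE, edgeR adjusted p = 0.000718) was called without each library in turn. Mmp7, a matrix protease gene, rose from 1.58 ± 0.0552 to 6.09 ± 2.04 CPM, Lef1, a transcription factor of the pathway, from 0.479 ± 0.113 to 7.62 ± 5.94 CPM, and Sp5, another such factor, from 1.35 ± 0.127 to 5.54 ± 2.91 CPM. Dropping Control replicate 1, 2 or 3 left Mmp7, Lef1 and Sp5 uncalled (highest edgeR adjusted p 0.0691, 0.109 and 0.169), dropping SOX17KO replicate 2 did so for Sp5 (edgeR adjusted p = 0.0682), and limma-voom did not call Lef1 or Sp5 (adjusted p = 0.0782 and 0.0763). Without SOX17KO replicate 1 the log2 fold change of Lef1 was 3.14 in place of 3.98.

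Axin2, the usual readout of Wnt activity, was at 164.7, 152.4 and 141.8 CPM in Control, against 235.4, 148.7 and 183.7 CPM in SOX17KO (log2 fold change 0.31, 95% interval -0.08 to 0.70, edgeR adjusted p = 0.369). The feedback gene Nkd1, named with Axin2 and Sp5 after the values were seen, was at 3.04 ± 0.207 CPM in Control, against 148.1, 9.17 and 24.1 CPM in SOX17KO. Its log2 fold change of 4.32 was not called (edgeR adjusted p = 0.0550), but DESeq2 called it (adjusted p = 0.000843), as did edgeR without SOX17KO replicate 1 (2.44, adjusted p = 0.000605) or 2 (4.83, adjusted p = 0.0222) and with no filter on low counts (adjusted p = 0.0327). Among the 16 targets, the calls were 6 higher and 1 lower by DESeq2, 2 higher by limma-voom, 8 higher and 1 lower by edgeR when SOX17KO replicate 1 was dropped, 5 higher and 1 lower when SOX17KO replicate 2 was, and 1 higher when Control replicate 1, 2 or 3 was. Each time the lower gene was Notum, which lay below Control in every SOX17KO library. Notum was at 210, 207.7 and 195 CPM in Control, against 155.4, 179.6 and 142.6 CPM in SOX17KO. With all libraries edgeR did not call it (log2 fold change -0.36, adjusted p = 0.0915).

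Of 16 further genes of the crypt base signature 11 were tested and 1 rose, with a median log2 fold change of 0.20. This was Kcne3, a potassium channel subunit gene, from 44.2 ± 1.75 to 79.9 ± 12.1 CPM (log2 fold change 0.85 ± 0.12 (SE), edgeR adjusted p = 0.00856). Dropping Control replicate 1, 2 or 3 left Kcne3 uncalled (highest edgeR adjusted p 0.0693), and with it the list. The list had 3 genes higher and 1 lower by DESeq2, 4 higher and 1 lower by edgeR when SOX17KO replicate 1 was dropped, and 2 higher when SOX17KO replicate 2 was. The gene called lower was Tnfrsf19 both times, at 120.5, 117.6 and 109.5 CPM in Control, against 77.0, 96.4 and 92.2 CPM in SOX17KO. With all libraries it was not called (log2 fold change -0.39, edgeR adjusted p = 0.0761). Over all genes, 5.75% were higher and 4.99% lower by DESeq2, 11.9% and 10.3% without SOX17KO replicate 1, and 444 of 12315 higher without SOX17KO replicate 2.

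The reserve stem cell markers Bmi1, Hopx, Tert and Mex3a were all tested, and 0 of 4 were called by edgeR, DESeq2 or limma-voom, with 0 at an unadjusted p below 0.05. Hopx, the most abundant by CPM, had 143.1 ± 3.74 CPM in Control and 134.5 ± 15.3 CPM with SOX17KO. The 10 proliferation genes gave 0 calls by any of these tools and 0 at an unadjusted p below 0.05; Mki67 was at 1190 ± 39.1 and 1067 ± 122.6 CPM. Without SOX17KO replicate 1 edgeR called 5 of the 10 lower, among them Mki67 and Hells, and 10.3% of all genes were called lower in that setting.

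**Figure D4:**
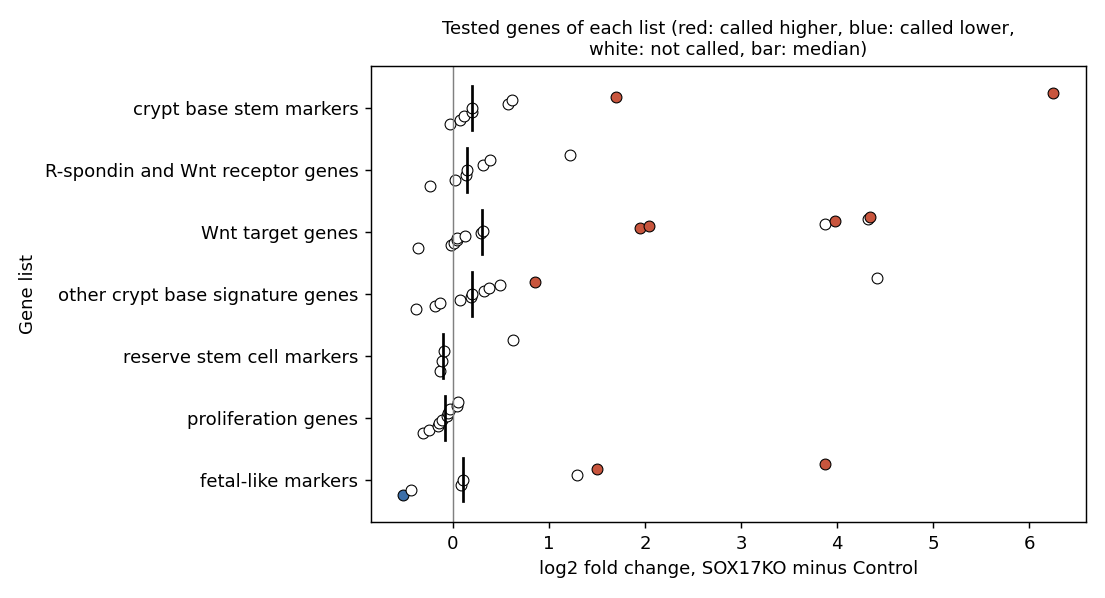
Log2 fold change of SOX17KO minus Control for each tested gene of the crypt base stem markers and of 6 further lists, with a bar at each list's median, red for genes called higher, blue for lower and white for genes not called. The median of the crypt base stem markers is 0.20, near the medians of 0.30 for Wnt targets and 0.20 for other signature genes, and the only gene called lower is Anxa8, among the fetal-like markers.

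Fetal-like markers, which are often opposed to Lgr5 in intestinal tumours and repair, moved both ways. Of 7 tested, 2 rose (Ctgf, from 1.20 ± 0.0824 to 17.6 ± 6.16 CPM, and Clu, from 6.19 ± 1.03 to 17.4 ± 6.12 CPM) and 1 fell (Anxa8, from 167.0 ± 4.08 to 116.8 ± 7.38 CPM). Dropping Control replicate 1, 2 or 3 left Clu and Anxa8 uncalled (highest edgeR adjusted p 0.114 and 0.0769).

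Markers of other cell types moved in the same libraries as Lgr5 and Smoc2, and their part in those results was not tested. Of 7 Paneth cell markers, 5 including Lyz1 and the defensin genes were at 0 in every library, and the 2 tested, Pla2g2a and Itln1, rose. The list summed to 0.989 to 1.20 CPM in Control and to 27.9, 8.60 and 19.5 CPM in SOX17KO. Of 7 goblet cell markers 4 were tested and Foxa3 rose from 27.8 ± 1.08 to 55.2 ± 3.09 CPM. The list summed to 292.2 to 335.3 CPM in Control and 210.7 to 484.2 CPM in SOX17KO, mostly from Agr2. Agr2 was at 267.4, 260.1 and 238 CPM in Control, against 130.2, 421.2 and 328.2 CPM in SOX17KO. With all libraries Agr2 was not called (edgeR adjusted p = 0.842), but edgeR called it higher without SOX17KO replicate 1. The mucus protein gene Fcgbp lay below Control in every SOX17KO library, with 38.2, 31.1 and 26.1 CPM in Control and 19.6, 9.30 and 23.1 CPM in SOX17KO. It was not called (log2 fold change -0.88, edgeR adjusted p = 0.174), though DESeq2 and edgeR without SOX17KO replicate 1 called it lower. Of 8 enterocyte markers 1 was tested, Fabp2, a fatty acid binding protein gene, with 1.39 ± 0.202 CPM in Control and 0.481 ± 0.224 CPM in SOX17KO. All SOX17KO libraries were below Control, and Fabp2 was not called (log2 fold change -1.55, edgeR adjusted p = 0.0687) except by DESeq2 and by edgeR without SOX17KO replicate 1, as lower. Most of the enterocyte sum of 20.4 CPM in SOX17KO replicate 1 came from Car1, which did not pass the filter on low counts with all libraries and was called higher by DESeq2 and by edgeR without SOX17KO replicate 2. Of 5 tuft cell markers 1 was tested, Ptgs1, which fell from 120.7 ± 2.34 to 68.9 ± 8.93 CPM. The other tuft markers were near or at the floor, so Ptgs1 alone made up most of the list. Il25 was at 0, and Pou2f3 and Trpm5 were at no more than 0.0380 and 0.290 CPM in any library. Dclk1 went the other way in replicate 1, with at most 0.109 CPM in Control and 2.29, 0.0439 and 0.166 CPM in SOX17KO. Of 5 gastric markers 2 were tested and Gkn1 rose from 0.119 ± 0.0296 to 0.526 ± 0.168 CPM. That was 9 counts over the Control libraries, near the floor, and 34 over SOX17KO. The list summed to 25.7 to 29.8 CPM in Control and 35.7, 177.7 and 155.1 CPM in SOX17KO. Nearly all of these sums was Tff1, a trefoil factor gene, with 29.1, 25.02 and 28.6 CPM in Control and 34.8, 177.0 and 153.6 CPM in SOX17KO. Every SOX17KO library was above Control, and Tff1 was not called with all libraries (log2 fold change 2.14, edgeR adjusted p = 0.0633) but was called higher by DESeq2, by edgeR without SOX17KO replicate 1 and with no filter on low counts.

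Itln1 and Foxa3 were called without each library in turn, as was Pla2g2a (highest edgeR adjusted p 0.0386, 0.0189 and 0.0477). Ptgs1 was not called without Control replicate 1 or 2, and Gkn1 was called with a library left out only where that was SOX17KO replicate 1 (edgeR adjusted p at most 0.0525 and 0.183). DESeq2 did not call Gkn1 (adjusted p = 0.0961), and the 1 gastric gene it called was Tff1. With no filter on low counts or with the replicate number as a block, edgeR did not call Gkn1 either.

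The 6 enteroendocrine markers summed to at most 0.0957 CPM in any library, with 4 at 0 throughout and Chga the most abundant. The 5 fibroblast markers summed to at most 0.344 CPM, led by Pdgfra with Dcn and Lum at 0, and the 3 endothelial markers, led by Cdh5, to at most 0.228 CPM. Of 4 immune markers 3 were found, Cd3e was at 0, and neither tested gene was called; Cd68 took most of a sum of 8.48 to 10.9 CPM in Control and 4.92 to 13.9 CPM in SOX17KO. Of 6 intestinal epithelial genes 1 rose, Epcam, from 532.5 ± 9.23 to 675.9 ± 1.60 CPM (0.34 on the log2 scale; edgeR adjusted p = 0.0343), a call kept when SOX17KO replicate 1 was dropped and lost when any other library was (highest edgeR adjusted p 0.207).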

How the data were processed

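Per the labels' protocols, column-purified RNA went through poly(A) selection into directional libraries. The authors deposited expected counts per gene; Bowtie, RSEM and mm9 are listed in the submitters' processing notes, without versions; annotation and strand setting are not stated. Values were rounded to whole numbers and tested with edgeR 4.0.16 in R 4.3.3 (TMM, filterByExpr with minimum count 10 and minimum total 15, quasi-likelihood F test, Benjamini-Hochberg over 12137 genes). The SE is the log2 fold change divided by the square root of F, and intervals use its t distribution. Totals of 18290912 to 27503254 limit low genes. DESeq2 1.42.0, limma-voom (limma 3.58.1), RLE, library totals, 2 other filters, unrounded values, a replicate block and leaving out each library were the alternatives. The procedure was tested on simulated data, with the same dispersion of a gene in both groups. A library that stands apart from its group was not simulated, so the simulation does not cover that case. No pair of libraries agreed within sampling noise, so none was treated as 1 library deposited again; this does not show that they are separate cultures.

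The members and lists were chosen with earlier results of these data known. Named genes were the members, Sox17, up to 3 called genes per pathway list and 2 per cell type list by smallest p (otherwise the most abundant), and the 3 genes closest to Lgr5 and to Smoc2 in profile, 1 of which is not reported here. Dact2, Dll1, Cdx2, Hells, Lgr6, Rnf43, Axin2, Nkd1, Notum, Sp5, Znrf3, Tnfrsf19, Agr2, Fcgbp, Fabp2, Dclk1, Pou2f3, Trpm5 and Tff1 were picked in addition, with values known. Neighbours were the 10 tested genes on each side in RefSeq order on GRCm38.p6 (12017 tested genes matched, 99.0%), a later build than mm9. Figures used matplotlib 3.10.9.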

Additional observations from a re-analysis of the deposited data

How the results depend on the processing

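Counts of calls depended on the libraries and the test. Over all genes, 446 were called higher and 388 lower; DESeq2 called 771 and 668, and leaving out 1 library gave 97 to 1453 higher (fewest without Control replicate 3, most without SOX17KO replicate 1) and 94 to 1255 lower (fewest without Control replicate 2). Members called higher, 2 with all libraries, were 4 with DESeq2, 1 with limma-voom and 1 to 4 with a library left out, and members called lower were 0 to 1. Genes of the 6 pathway lists, 7 higher and 1 lower, were 13 and 4 with DESeq2 and 2 to 18 and 0 to 9 with a library left out. Cell type markers, 5 higher and 1 lower, had 3 lower with DESeq2 and 3 to 9 higher and 0 to 3 lower with a library left out. The cause was not tested, though leaving out a library leaves fewer samples. Log2 fold changes turned sign for 7 genes that were not called with all libraries. With 1 library left out they ranged from -0.13 to 0.21 for Lgr4, -0.39 to 0.53 for Ascl2 and -0.27 to 0.29 for Cdca7 (negative without SOX17KO replicate 1), -0.10 to 0.024 for Cd44 (0.016 and 0.024 without Control or SOX17KO replicate 1), -0.017 to 0.34 for Lrp5 (negative without SOX17KO replicate 2), -0.056 to 0.092 for Rnf43 (negative without Control or SOX17KO replicate 3) and -0.15 to 0.46 for Cd68 (negative without SOX17KO replicates 2 or 3). Rnf43 was at -0.0017 with no low-count filter and Cd68 at -0.072 with limma-voom. Of these, Cdca7 was called where its sign turned. With the replicate number as a block, 183 genes were called higher and 143 lower, and the 2 members were still called (edgeR adjusted p = 0.0151 for Lgr5 and 0.0089 for Smoc2). Deviations from the group means of same-numbered libraries correlated at -0.186, -0.0467 and -0.181, and those of other pairs at -0.0567 to 0.17. Within a group of 3 the deviations of a gene sum to 0, which limits what such correlations can show. Whether same-numbered libraries share more than the number was therefore not settled. At this depth a change in Olfm4 could not be measured.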
